A study of Physcomitrium patens with 5 samples.

Results

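Of the 31775 loci in the expression table of the moss Physcomitrium patens, 56 were at least 3 times higher in every library from β-estradiol than in any library from DMSO. These loci also had to have only uniquely mapped reads (a fraction called maxMultiRatio of 0), a length of at least 0.5 kb, a DMSO mean under 200 RPKM and at least 1 RPKM in each β-estradiol library. RPKM is the number of reads per kilobase of locus, scaled to a fixed library total. All criteria but the fold were met by 12721 loci, called eligible here, and the members are 0.44% of these. The members were therefore picked on the difference between treatments, and their higher level after treatment is their definition and not a finding.

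All 5 libraries come from the PpARFC2 inducible overexpressor line. Protonemata aged 7 days were kept for 16 h on 0.01% DMSO, the solvent (2 libraries), or on 1 µM β-estradiol, the inducer (3 libraries). Poly-A RNA was sequenced. All groups thus carry the transgene, and what β-estradiol does by itself cannot be told apart from what PpARFC2 does. The labels do not say whether replicates are separate cultures, so the library spread behind each p-value may be purely technical.

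Protonemata are the filaments that grow from a moss spore, and leafy shoots called gametophores arise from buds on them. Auxin response factors are DNA-binding proteins that set the transcription of auxin-regulated genes, and those of class C, such as PpARFC2, are mostly regarded as repressors. The columns of the treated libraries are headed XVE, the usual name of a synthetic transcription activator that β-estradiol switches on. The table names loci by ID alone. None of its 31775 IDs (0) matched the reference list of 27567 genes used here, so no member can be given a gene name or a role, and PpARFC2 could not be looked up. For the same reason 2 members are named by ID, and the others are described by their ID prefix (such as Pp3c17), their length and their rank by fitted change.

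The libraries held 17.6 to 27.7 M reads (M, mega) within the listed loci, and DMSO 1 and β-estradiol 1 were the deepest. In a locus of 1 kb, 3 reads correspond to 0.0533 to 0.0804 RPKM. β-estradiol 2 and 3 were the closest pair: over the members their median absolute difference on the log2(RPKM + 0.5) scale was 0.14. It was 0.34 between β-estradiol 1 and 2, 0.32 between β-estradiol 1 and 3 and 0.34 between the DMSO libraries. Every member had at least 33 reads in every β-estradiol library, while 4 members had no read in DMSO 1 and 6 had none in DMSO 2.

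**Figure D1:**
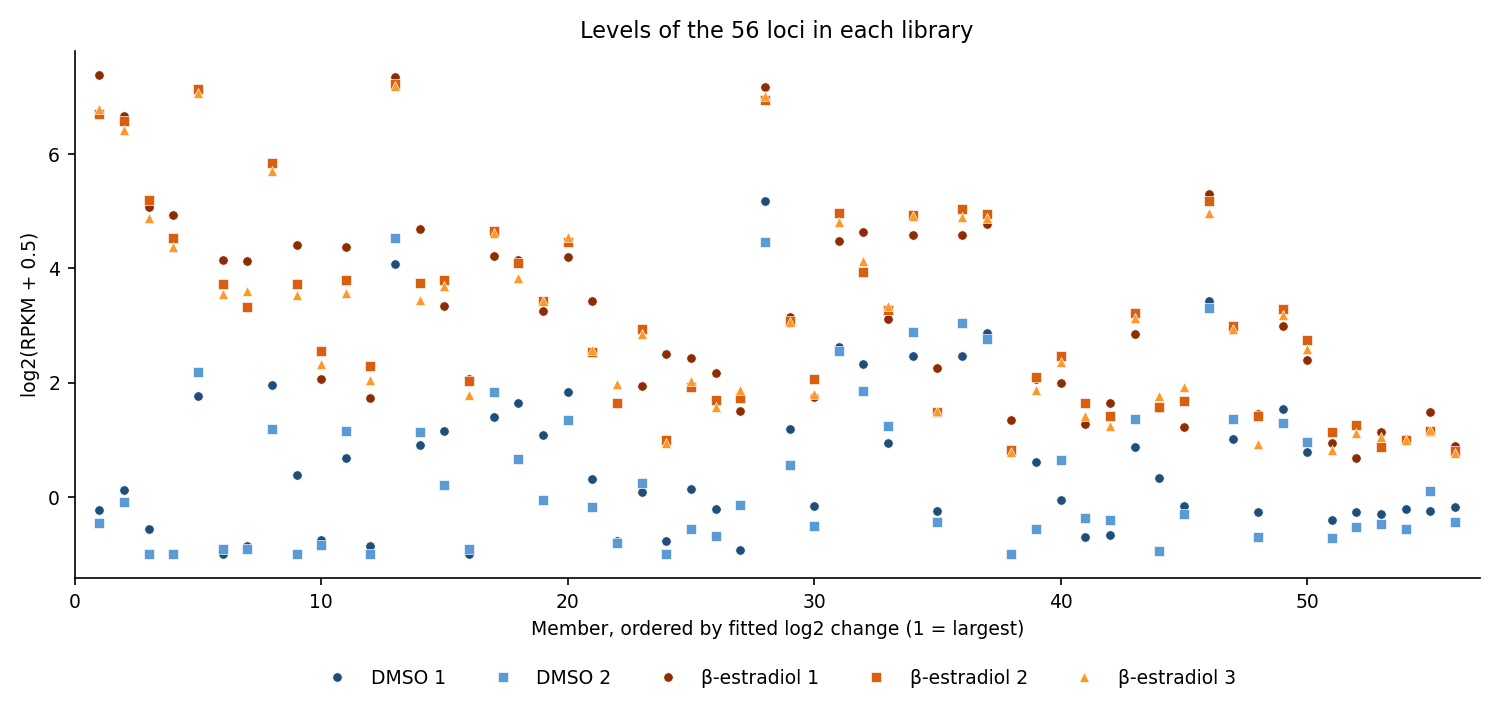
Level of each of the 56 members in the 5 libraries, as log2(RPKM + 0.5), with members ordered along the horizontal axis by fitted log2 change from 1 (largest) to 56. Blue points are the 2 DMSO libraries and brown to orange points the 3 β-estradiol libraries; the rule keeps the groups apart at each member, and the median β-estradiol mean is 28.5 RPKM over ranks 1 to 10 and 4.94 RPKM over ranks 11 to 56, with the highest single mean, 152 RPKM, at rank 13.

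As a group the members were a small part of the control RNA. They took 0.0556% of the summed RPKM in DMSO 1 and 0.053% in DMSO 2, against 0.571%, 0.54% and 0.521% in β-estradiol 1, 2 and 3. The 5 highest members carried 52.0 to 58.4% of the members' sum in each library. The median member had 0.6 and 0.398 RPKM in the DMSO libraries and 7.35, 7.7 and 7.54 RPKM in the β-estradiol libraries. The fitted change, the coefficient of β-estradiol in a limma model of log2(RPKM + 0.5) over the 17429 loci that averaged 0.5 RPKM or more, had a median of 2.22 over the members, with quartiles of 1.96 and 2.92. Over all tested loci the median was -0.02. This scale understates the change of low loci: the median of the members was 3.02 with a pseudocount of 0.1 in place of 0.5, and 3.24 with voom on the recovered reads. With the 2 members that had no DMSO read set to a lower bound it was 2.23.

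Most members were barely expressed in DMSO, but few were without any reads. At most 3 reads in each DMSO library, called silent here, were found for 4 members. Another 29 were low, with more reads but a DMSO mean under 1 RPKM, and 23 were active, with 1 RPKM or more. Among eligible loci 98.0% were active in DMSO. Eligible loci all have at least 1 RPKM after treatment, so a locus below that in DMSO was higher in β-estradiol by definition. At most 3 reads in a locus of 0.5 kb or more lie so far below 1 RPKM that all 4 silent eligible loci had to be members. Of the 250 low eligible loci, 29 were.

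Of the silent members, the one reaching the highest level had no read in either DMSO library. It lies under Pp3c22, is 0.947 kb long, and had 30.1, 22.6 and 20.2 RPKM in β-estradiol 1, 2 and 3 (3155 reads in all). Against a floor of 3 reads over both DMSO libraries, it was at least 747-fold higher. The other member without a DMSO read, under Pp3c4 (2.968 kb), had 2.05, 1.26 and 1.24 RPKM, at least 148-fold higher than the same floor. The mates of a pair may have been counted as separate reads, so both bounds may be too high.

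The remaining silent members had 1 read each, in DMSO 2. One is a 0.747 kb locus under Pp3c17 that had 17.3, 12.8 and 11.2 RPKM in β-estradiol 1, 2 and 3. Counting both mates of a pair once, its ratio at equal depth was 501, and the exact 95% interval (Clopper-Pearson) ran from 89.7 to 19823, for counting error alone. The other is a 0.779 kb locus under Pp3c2 with 3.67, 3.61 and 2.96 RPKM, a ratio of 127 and an interval of 22.5 to 5047. Both ratios rest on a single DMSO read, and the intervals are accordingly wide.

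By fitted change, the 3 largest differences were those of low members. By lowest treated over highest control level, the largest ratio that could be formed, 317, was that of the 0.747 kb silent member under Pp3c17. The 2 members without a DMSO read have no such ratio and were placed before it. Pp3c17_17250 (1.496 kb) had 0.356 and 0.229 RPKM in DMSO 1 and 2, and 167, 104 and 111 RPKM in β-estradiol 1, 2 and 3. Its fitted change of 7.30 (SE 0.24) was the largest of all tested loci, and its lowest treated library was 291 times its highest control library. Pp3c26_13260 (1.892 kb) came next, with 0.592 and 0.446 RPKM in DMSO and 101, 95.2 and 85.0 RPKM in β-estradiol. Its fitted change was 6.53 (SE 0.16), and the ratio of lowest treated to highest control library was 144. Both loci therefore stood among the 5 highest members after treatment while lying under 1 RPKM in both controls.

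The third by fitted change, a 0.898 kb locus under Pp3c8, had 0.178 and 0 RPKM in DMSO and 33.3, 36.0 and 29.0 RPKM in β-estradiol, with a fitted change of 5.83 (SE 0.19). Most low members stayed far below these. The median level reached by the 29 low members was 2.97 RPKM, with 7 of them under 2 RPKM and 17 between 2 and 10 RPKM. At the lower end, a 4.961 kb locus under Pp3c15 had 0.387 and 0.239 RPKM in DMSO and 1.36, 1.24 and 1.2 RPKM in β-estradiol. It had the smallest fitted change of the members, 1.12 (SE 0.18).

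Active members were already transcribed in the controls, and the 3 highest levels reached were theirs. With a DMSO mean of 1 RPKM or more, the rule required at least 3 RPKM in each of their treated libraries. Members with lower controls could pass with less, down to 1 RPKM, so higher levels of active members are partly set by the rule. A 4.46 kb locus under Pp3c17 had 16.4 and 22.7 RPKM in DMSO and 162, 149 and 146 RPKM in β-estradiol, the highest mean of the members (152 ± 8.30 RPKM, SD, n = 3). Next in level was a 3.989 kb locus under Pp3c10, with 2.92 and 4.04 RPKM in DMSO and 140, 140 and 134 RPKM in β-estradiol. Its fitted change of 5.13 (SE 0.17) was the largest of any active member. Both were about equally high in all 3 treated libraries.

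The highest control level among the members was that of a 4.768 kb locus under Pp3c14, with 35.6 and 21.7 RPKM in DMSO and 143, 123 and 129 RPKM in β-estradiol. A 3.858 kb locus under Pp3c2 had 3.38 and 1.78 RPKM in DMSO and 56.1, 57 and 51.6 RPKM in β-estradiol, with a fitted change of 4.22 (SE 0.25). The other 19 active members reached at most 35.3 RPKM. The median fitted change was 3.84 for the 4 silent, 2.21 for the 29 low and 2.22 for the 23 active members. The pseudocount shrinks the change of low members more: their median means were 0.27 RPKM in DMSO and 2.97 RPKM in β-estradiol, against 2.56 and 18.8 RPKM for active ones.

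**Figure D2:**
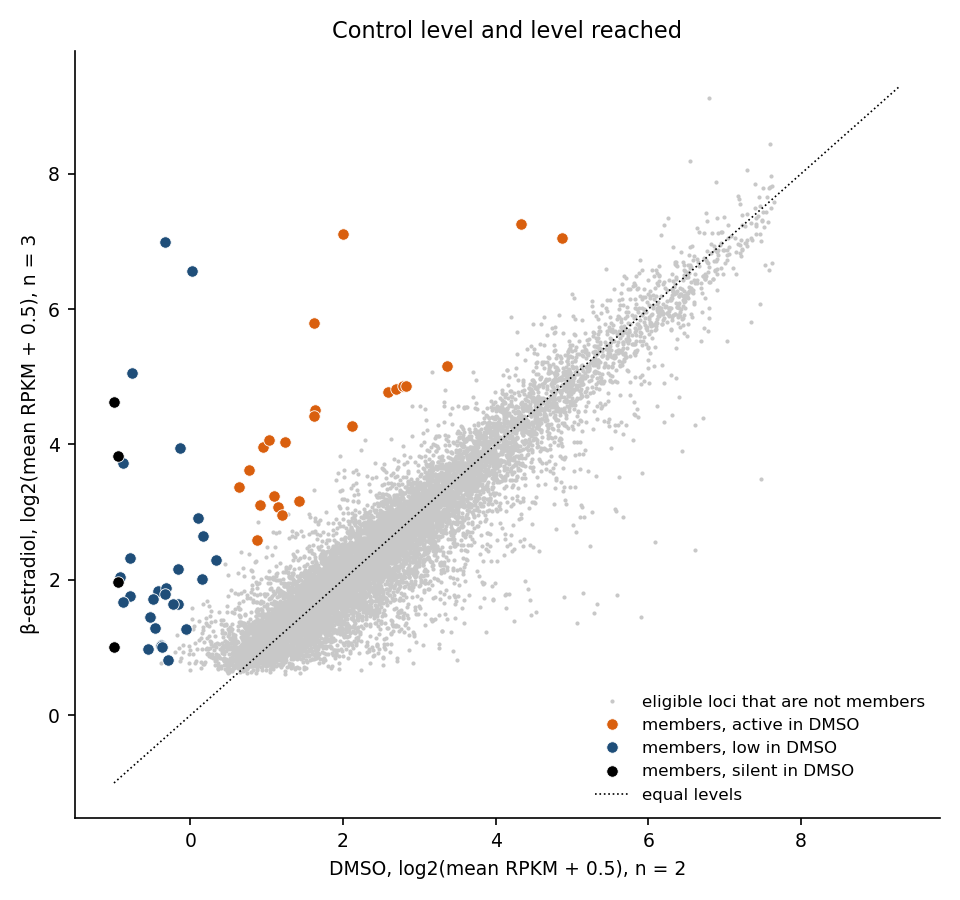
Mean level in DMSO (horizontal, n = 2) against mean level in β-estradiol (vertical, n = 3), both as log2(mean RPKM + 0.5), for the 12721 eligible loci. Members are coloured by control class (4 silent, 29 low, 23 active) and other eligible loci are grey; the members lie above the dotted line of equal levels by definition, and those reaching over 50 RPKM came from both low and active controls.

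By level reached, 8 members had a β-estradiol mean under 2 RPKM, 25 had 2 to 10 RPKM, 17 had 10 to 50 RPKM and 6 had 50 RPKM or more. Of the 6, 2 were low and 4 active in DMSO. Eligible loci fell into the same classes at 15.7%, 62.9%, 17.8% and 3.62%, against 14.3%, 44.6%, 30.4% and 10.7% of members. The median β-estradiol mean was 7.62 RPKM for members and 4.34 RPKM for eligible loci. In DMSO the order was the other way round, at 0.489 and 4.52 RPKM. The rule picked the members on these same values, so both contrasts are a description only.

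By size of change, 37 members had a fitted change of 4-fold or more, 10 of 8-fold or more, 9 of 16-fold or more and 5 of 32-fold or more. There was a gap between the ninth member at 4.20 and the next at 3.10, below which values followed closely. The ninth is a 0.807 kb locus under Pp3c6 with 0.815 and 0 RPKM in DMSO and 20.9, 12.8 and 11.1 RPKM in β-estradiol. The order depends on the measure. In the order by lowest treated over highest control level, the 2 members without a DMSO read were placed first. Of the 10 largest by fitted change, 7 were among the first 10 in that order and 5 among the 10 highest by level reached. With a pseudocount of 0.1 or 1, 8 and 9 of these 10 were again among the 10 largest.

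At the edge of the fold criterion, the last members inside had ratios of lowest treated to highest control level of 3.01, 3.03 and 3.04. The nearest eligible loci outside had 2.90, 2.89 and 2.89. The member nearest to the threshold, a 2.325 kb locus under Pp3c8, had 10.3 and 9.37 RPKM in DMSO and 39.1, 35.9 and 30.9 RPKM in β-estradiol. Just outside was a 2.356 kb locus, also under Pp3c8, with 1.21 and 0.872 RPKM in DMSO and 3.85, 3.52 and 4.01 RPKM in β-estradiol. The other criteria kept out 106 loci for their level alone, 9 for their length alone and 6 for their maxMultiRatio alone. The 106 include any locus with a read in every treated library, and most were under 0.5 RPKM in at least 1 of these. With the level criterion at 0.5 RPKM the rule gave 63 members in place of 56. At the level criterion, the lowest treated library of the nearest locus outside had 0.938 RPKM and that of the nearest member 1.11 RPKM.

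Members were more spread in length than eligible loci, with more at the short end. Their median length was 2.29 kb (quartiles 1.41 and 3.96), against 2.65 kb (1.91 and 3.64) for eligible loci. Lengths of 0.5 to 1 kb were found for 7 members (12.5%) and for 3.07% of eligible loci, and lengths of 4 kb or more for 13 members (23.2%) and 19.2%. Among the members length went with control class: the median was 0.863 kb for the 4 silent, 1.89 kb for low and 3.86 kb for active ones. The longest silent member had 2.968 kb. Lengths by control class were not compared with those of eligible loci, so this need not be particular to the members. The 10 members with the largest fitted change had a median of 1.59 kb, and the other 46 one of 2.45 kb. A short locus collects fewer reads at a given RPKM, and the part of this in the silent class was not tested.

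All 56 members carried the prefix Pp3c and 0 carried Pp3s, the prefix of 0.102% of eligible loci. Locus numbers in this table nearly always end in 0, and 1.12% of eligible loci have another ending. Among the members 6 did (10.7%), of which 2 were silent, 4 low and 0 active in DMSO. They include the silent members under Pp3c17 and Pp3c2. Their lengths ran from 0.747 to 1.681 kb.

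The members were spread over 21 prefixes. Pp3c14 and Pp3c4 held 7 each (12.5% of members, against 4.57% and 4.41% of eligible loci), Pp3c2 held 6, Pp3c17 held 5 and Pp3c6 held 4. The other 16 prefixes held 1 to 3 members each. Of the numbered prefixes, 6 held no member: Pp3c5, Pp3c9, Pp3c18, Pp3c21, Pp3c25 and Pp3c27, with 179 to 519 eligible loci each. These counts include members lying side by side, described next, and carry no test.

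Some members lay next to each other in the order of locus numbers. Among all listed loci, 12 members (21.4%) were direct neighbours of another member, in 5 runs of 2 or 3. Counting only eligible loci between them, 15 members formed 6 runs, the longest of 3. Within 10 listed loci of another member, a distance set after the values were seen, were 18 members (32.1%) in 7 clusters. The clustered members were 3 silent, 10 low and 5 active ones, and they had a median fitted change of 2.94, against 2.11 for the 38 others. Of the 10 largest fitted changes, 7 were in a cluster. No strand-marking step is described in the labels' library protocol, and how far neighbours share reads was not tested.

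The cluster with the largest changes was a run of 3 under Pp3c17, between locus numbers 17239 and 17252, with Pp3c17_17250 in the middle. The 0.747 kb silent member described above was on one side. On the other side, a 1.681 kb locus had 0.0528 and 0.0314 RPKM in DMSO and 17.1, 9.56 and 11.7 RPKM in β-estradiol, with a fitted change of 4.58 (SE 0.25). The outer members were thus about equal to each other and far below the middle one. Nothing like it was seen directly beside the run. The next listed locus on the lower-numbered side had a mean of 5.85 RPKM in DMSO and 3.20 RPKM in β-estradiol, and that on the higher-numbered side 0 and 0.0179 RPKM. Further out, 3 loci past the run, a 4.431 kb locus went from 5.23 to 11.9 RPKM in the means (limma, adjusted p = 0.0477).

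Under Pp3c22, 3 neighbours between locus numbers 11190 and 11210 were members. The silent one at the end of the run was described above. The middle one (5.717 kb) had 1.12 and 1.74 RPKM in DMSO and 20.3, 13.5 and 11.5 RPKM in β-estradiol. The first (1.956 kb) had 1.39 and 1.71 RPKM in DMSO and 25.4, 13.0 and 10.4 RPKM in β-estradiol. These neighbours differed in control level, from no read to over 1 RPKM, but reached like means of 15.1 to 24.3 RPKM. The listed loci on either side had means of 0 and 0.184 RPKM, and of 4.76 and 4.62 RPKM, in DMSO and β-estradiol.

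A pair under Pp3c6, locus numbers 26910 and 26920, lay beside a locus with far higher levels that is not a member. The pair comprises the 0.807 kb member described above and a 4.664 kb member with 4.54 and 3.10 RPKM in DMSO and 24.4, 14.9 and 17.1 RPKM in β-estradiol. The locus beside them (5.534 kb, maxMultiRatio 0) had 216 RPKM in DMSO 1, 3.95 RPKM in DMSO 2, and 796, 401 and 476 RPKM in β-estradiol 1, 2 and 3. DMSO 1 thus lay between DMSO 2 and the treated libraries there, and the fitted change of 4.11 (SE 1.53) was not called (limma, adjusted p = 0.192). In the 0.807 kb member, too, the DMSO reads were all in DMSO 1. The locus on the other side of the pair (2.1 kb) had 0.203 and 0 RPKM in DMSO and 1.54, 0.0966 and 0.0765 RPKM in β-estradiol, again with 1 library of each group above the rest.

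The pair under Pp3c14 at locus numbers 1010 and 1030 went from under 0.1 RPKM in both controls to levels of 2.81 RPKM or more. The first (1.678 kb) had 0.0953 and 0.0628 RPKM in DMSO and 3.66, 5.38 and 4.53 RPKM in β-estradiol. The second (1.327 kb) had 0.0536 and 0 RPKM in DMSO and 2.81, 4.43 and 3.63 RPKM in β-estradiol. Both had the same order of the 3 treated libraries. The listed loci beside the pair had means of 0 in both groups on one side, and of 0.16 and 0.229 RPKM on the other.

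In the other 3 clusters members were mixed with loci that missed the rule. Under Pp3c4, between locus numbers 6910 and 7029, 4 members and 4 other loci were listed; of these others 2 were listed at 0 in all 5 libraries and 2 were called higher. One of the called loci (9.272 kb) had a mean of 1.68 RPKM in DMSO and 13.4 RPKM in β-estradiol, and a maxMultiRatio of 0.064 kept it out. The highest member of this cluster (2.018 kb) had 0.748 and 0.392 RPKM in DMSO and 10.3, 5.30 and 5.43 RPKM in β-estradiol.

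Under Pp3c14, between 20900 and 20980, 2 members enclosed 4 loci that were all under 0.5 kb, of which 3 were tested and all 3 called higher. The members had fitted changes of 2.54 (SE 0.18) and 2.87 (SE 0.30). Under Pp3c8, between 24500 and 24670, the third largest member and the one nearest to the fold threshold stood 6 listed places apart, counting both. Of the 4 loci between them, 2 were tested and 1 was called higher, a 1.956 kb locus with 0.745 and 0.62 RPKM in DMSO and 1.72, 2.27 and 2.01 RPKM in β-estradiol.

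**Figure D3:**
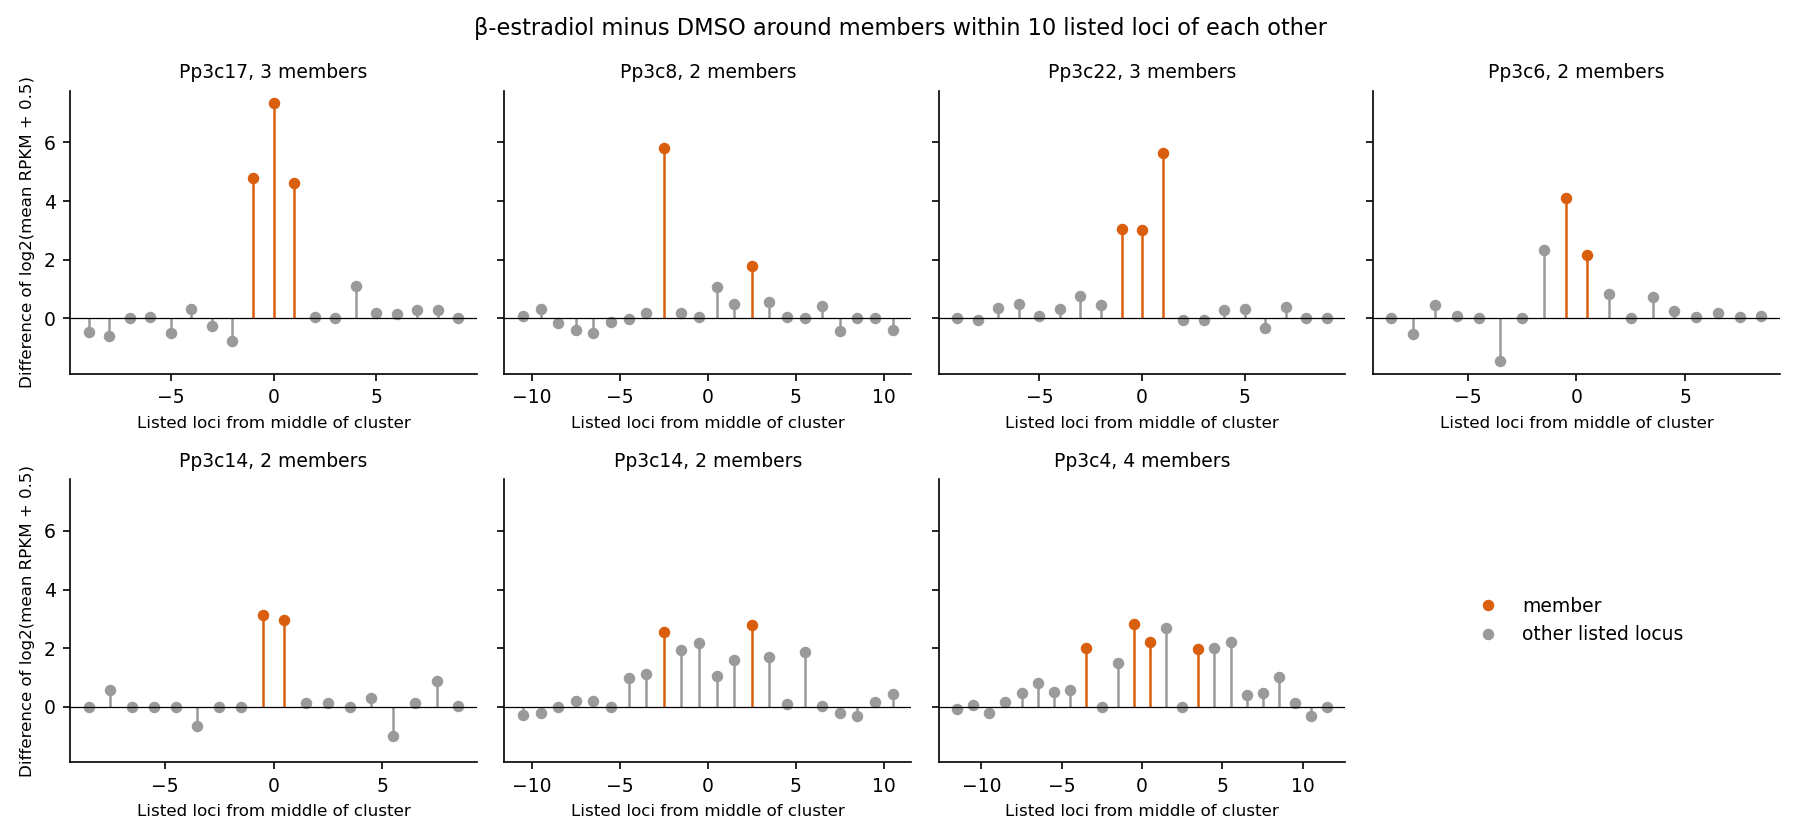
Difference of log2(mean RPKM + 0.5) between β-estradiol and DMSO for every listed locus in and around the 7 clusters of members, against its place in the listed order counted from the middle of the cluster. Orange marks members and grey all other listed loci; under Pp3c17 and Pp3c22 the loci directly beside the run are not raised like its members, while under Pp3c4 and in one Pp3c14 cluster grey loci between and beside the members are raised too.

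Loci directly beside a member, but not members themselves, numbered 98, of which 57 had a mean of at least 0.5 RPKM and were tested. Of these, 11 were called higher (19.3%, limma, adjusted p under 0.05) and 0 lower, and their median fitted change was 0.17. Over all 17429 tested loci, 1.58% were called higher. Beside members outside the clusters, 4 of 45 tested loci were called higher (8.89%). Some of the called loci missed the rule on a single criterion. Directly beside Pp3c26_13260, a 0.264 kb locus had 0.0673 and 0.0998 RPKM in DMSO and 23.7, 37.8 and 37.3 RPKM in β-estradiol, and was too short.

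A similar case lay close to the 3.858 kb active member under Pp3c2. The 2.932 kb locus directly beside it had 0.0848 and 0.0449 RPKM in DMSO and 19.9, 18.2 and 14.4 RPKM in β-estradiol, with a fitted change of 4.98 (SE 0.18, limma adjusted p = 0.000475). Its maxMultiRatio of 0.000637 kept it out. Its fitted change lies between those of the fifth and the sixth member. Beside the silent 0.779 kb member under Pp3c2, a locus of 0.267 kb had no read in DMSO and 3.55, 3.51 and 1.00 RPKM in β-estradiol.

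The rule uses the lowest treated library but sets no order among the 3. The spread of the β-estradiol libraries is therefore not independent of the rule. Eligible loci met no fold criterion, so comparisons with them are a description only. β-estradiol 1 was the highest of the 3 at 27 members (48.2%), the lowest at 23 (41.1%) and between the others at 6. Among eligible loci it was highest at 40.2% and lowest at 42.7%. Members were more spread than eligible loci: the median coefficient of variation over the 3 libraries was 15.7%, against 9.60%. The difference of β-estradiol 1 from the mean of 2 and 3 had quartiles of -0.28 and 0.36 on the log2(RPKM + 0.5) scale over members, and of -0.17 and 0.16 over eligible loci.

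Clustered members leaned to one side. β-estradiol 1 was the highest library at 13 of 18 clustered members and at 14 of 38 others, and the median difference from the mean of 2 and 3 was 0.50 and -0.07 in these. All 3 members under Pp3c17, all 3 under Pp3c22 and both under Pp3c6 were highest in β-estradiol 1, by 0.49 to 1.10. Both members of the Pp3c14 pair at 1010 and 1030 were lowest there, by -0.45 and -0.39. Neighbours are not independent of each other, and β-estradiol 1 is also the deepest treated library; whether depth has a part in this was not tested.

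**Figure D4:**
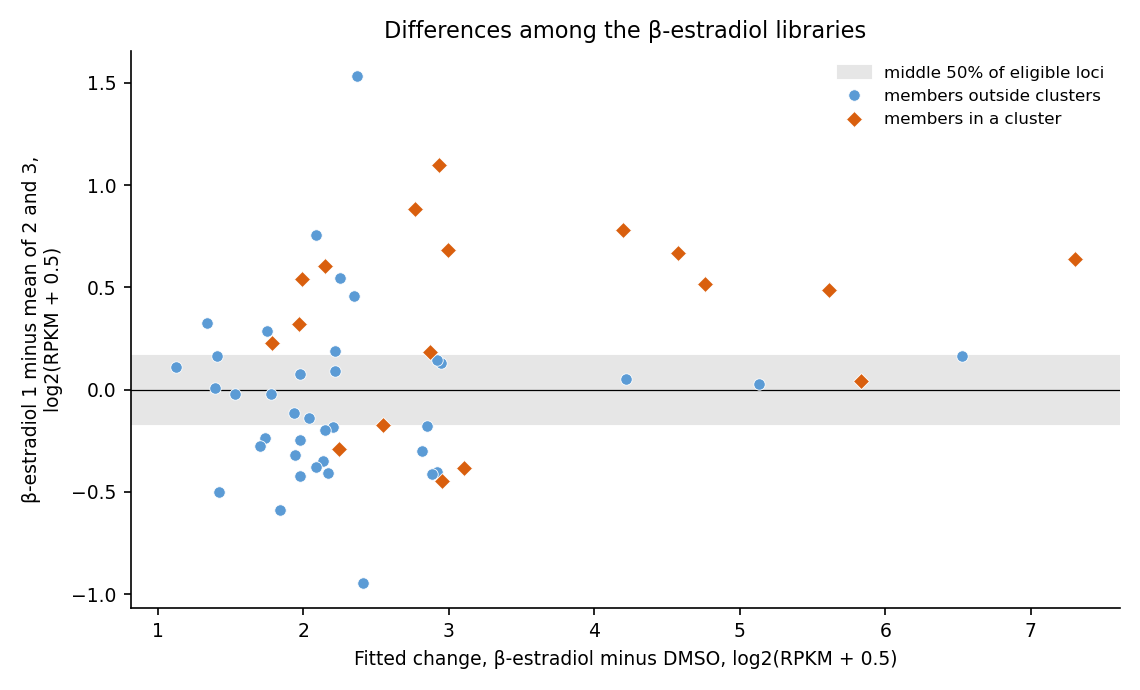
Difference of β-estradiol 1 from the mean of β-estradiol 2 and 3 (vertical) against fitted change (horizontal), both on the log2(RPKM + 0.5) scale, for the 56 members. Diamonds are the 18 clustered members, circles the 38 others, and the grey band spans the quartiles of eligible loci (-0.17 to 0.16); 13 of the diamonds have their highest treated level in β-estradiol 1.

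The widest spread in treated libraries belonged to a 1.663 kb low member under Pp3c4 outside the clusters. It had 0.0855 and 0 RPKM in DMSO and 5.18, 1.51 and 1.42 RPKM in β-estradiol, so that β-estradiol 1 was far above the others. The opposite was seen for the longest member, 7.481 kb under Pp3c10, with 0.558 and 0.694 RPKM in DMSO and 3.36, 7.16 and 6.70 RPKM in β-estradiol. The least spread, with a coefficient of variation of 0.548%, was that of the shortest member, 0.59 kb under Pp3c3, at 1.51, 1.5 and 1.5 RPKM. These levels rest on only 50, 35 and 33 reads in β-estradiol 1, 2 and 3, so a tightly held level is not read from them.

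Between the controls, DMSO 1 was above DMSO 2 at 35 members (62.5%), while among eligible loci it was above at 39.6%. Single members show how far they could part: a 2.432 kb locus under Pp3c11 had 0.76 and 0.0217 RPKM in DMSO, and 2.45, 2.49 and 2.91 RPKM in β-estradiol. The rule compares with the higher control, so DMSO 1 set the limit at 35 of the 56. Without DMSO 1 the same rule finds 195 loci in place of 56, and without DMSO 2 it finds 72.

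The libraries also pair by depth, DMSO 1 with β-estradiol 1 and DMSO 2 with β-estradiol 2 and 3, and all 56 members were higher in both sets, as the rule demands. Their median change on the log2(RPKM + 0.5) scale was 2.24 in the deeper set and 2.45 in the shallower one. It was the larger in the deeper set at 27 members and in the shallower at 29. Clustered members were larger in the deeper set at 12 of 18. For Pp3c17_17250 the changes were 7.61 and 7.21, and for Pp3c26_13260 6.54 and 6.58.

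In the model over all tested loci, 55 of the 56 members were called higher (limma, adjusted p under 0.05), where 1.58% of all tested loci were. Since the same contrast picked the members, nothing is read from this. The member that was not called is the 1.663 kb locus under Pp3c4 with the widest spread (adjusted p = 0.061). The groups did not overlap at any member by definition, and 20.8% of tested loci were higher in β-estradiol without overlap. The count depends on the treated libraries kept. When β-estradiol 1 was left out, limma called 31 members, with 0.281% of all tested loci called higher. Leaving out β-estradiol 2 or β-estradiol 3 left 12 and 11 members, with 0.0975% of all tested loci called higher in either case. Leaving out DMSO 1 gave 55 members, with 7.7% of tested loci called higher, and leaving out DMSO 2 gave 52, with 1.65%. All 56 were called with the replicate number as a block and with the depth class as a term, and 48 with voom on the recovered reads. Of all tested loci, these fits called 3.35%, 9.8% and 1.23% higher, in that order. In the block fit β-estradiol 3 stood alone under its number, so the changes there rest on the other libraries.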

How the data were processed

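Poly-A RNA of protonemata was profiled in 2 DMSO and 3 β-estradiol libraries, grouped by their titles. Per the submitters' processing notes, RSEM, Bowtie2, HISAT2, StringTie and Cufflinks were used; the sources used here state neither their roles and versions nor the build and annotation. RPKM values per locus were deposited by the authors, as was a TMM-named table of signal scaled by length and library size. The deposited fraction maxMultiRatio has no definition in the files; only loci above 0 had non-whole reads, so it is taken here to mark multiple mapping. Reads were recovered from RPKM times length, which was a whole number of reads (within 0.01) for 100% of the detected loci at maxMultiRatio 0 and 91.6 to 92.6% of all. No column was unused (0).

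The rule was applied in Python 3.11.15. The 17429 loci averaging 0.5 RPKM or more were fitted on log2(RPKM + 0.5) in limma (version 3.58.1, R 4.3.3), with its two-sided test, trend and robust settings, no covariate and Benjamini-Hochberg adjustment over all of them; calls have an adjusted p under 0.05. The fit was tested on simulated data. Members, classes and alternatives were chosen with earlier results of these data known. The 2 members with the largest fitted change are named by ID, and the others without. The gene lists that were fixed need symbols and were not used here. No resampling or set test was run. The alternatives were other thresholds, pseudocounts, filters and scalings, leaving out each library, a replicate block, a depth term and voom on recovered reads. Intervals and floors cover counting error only.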

Additional observations from a re-analysis of the deposited data

How the results depend on the processing

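A looser threshold or a left-out library can only keep or add members under the rule, so such settings cannot lose any. The number of members (56) stayed within 1.5 times under 11 of 13 alternatives. It was 134 with a fold threshold of 2, and leaving out 1 library gave 62 to 195, the most without DMSO 1. The TMM table gave 66, with the cut of 1 applied to its own values, which are not RPKM. Members called by limma (55) numbered 11 to 55 when 1 library was left out; 0.281% of tested loci were called higher without β-estradiol 1 and 0.0975% without β-estradiol 2 or 3. The fit without β-estradiol 3 called 17 of the tested loci higher, 11 of them members. The same contrast picked the members, so no core of them is read from these counts. A lone DMSO library takes its spread from the treated ones. With voom 48 members were called, with 1.23% of all tested loci called higher. Over all tested loci the number called higher (276) was 156 without a filter, 1708 with the depth class as a term, and 17 to 1342 when 1 library was left out.

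With the replicate number as a block, limma called 584 loci higher (3.35%) and all 56 members, at a median change of 2.24. No DMSO library shares the number of β-estradiol 3, which therefore adds nothing to the changes or the spread in that fit. Pp3c17_17250, for example, had 7.39 both with the block and without β-estradiol 3. Deviations from the group mean correlated at 0.615 between the libraries numbered 1 and at 0.541 between those numbered 2, but also at 0.406 between DMSO 2 and β-estradiol 3. The deviations of 2 DMSO libraries mirror each other, so these values are not independent. The labels give a shared number no meaning, and the numbers are not treated as pairs. The median change of the members (2.22) was 3.02 with a pseudocount of 0.1, 1.96 with 1, 2.72 with the TMM table and 3.24 with voom, and 2.21 to 2.49 when 1 library was left out. For the TMM table the pseudocount of 0.5 was added to values that are not RPKM, so its setting is not alike. Pp3c17_17250 ranged from 6.60 to 8.71 and Pp3c26_13260 from 5.96 to 7.49 over the 14 fits, all called. No member tested changed sign in any fit, but the rule all but fixes the sign, so nothing is read from this. The filter at a mean of 1 RPKM left 53 of the 56 members to test. The cause of the differences among the fits was not tested. Depth limits the silent class, where the fold rests on a single DMSO read or, for the 2 members without any, on the floor of 3 reads.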
